A study of Homo sapiens with 21 samples.

Results

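MYC and PVT1 are neighbouring genes on chromosome 8, and the data described here are the HNRNPK binding clusters that carry either gene name. Across 4 libraries, 724 of 778762 clusters were named for these genes, 14 for MYC and 710 for PVT1. The members numbered 179 of 201726 clusters in the parental cytoplasm, 114 of 177530 in the KRT19 KO cytoplasm, 238 of 200387 in the parental nucleus and 193 of 199119 in the KRT19 KO nucleus. MDA-MB-231, an established human line of triple-negative breast cancer, was used either as the parental line or with KRT19, the gene of keratin 19, knocked out with CRISPR/Cas9. Whether the KRT19 KO line is a single clone is not given in the sources used here. RNA bound by HNRNPK was recovered from the cytoplasm and from the nucleus of both lines with an antibody named anti-HNRNPK/J, which gave 1 library per condition. The study asked how keratin 19 bears on the RNAs that HNRNPK binds in the cytoplasm, and nuclear libraries were deposited beside the cytoplasmic ones.

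HNRNPK is an RNA-binding protein whose KH domains prefer cytidine-rich RNA. In PAR-CLIP, 4-thiouridine in the RNA is crosslinked to the protein by ultraviolet light and is then read as C in place of T, so a cluster is a short stretch of overlapping reads that carry such T-to-C conversions. MYC encodes a transcription factor that drives growth and proliferation, from an mRNA that is known to be short-lived. PVT1 is a long noncoding RNA gene that lies downstream of MYC on the same strand, is often gained together with it in tumours, and hosts several microRNAs.

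Each condition had a single library, so no replicate spread exists and no test was possible. Intervals are 95% intervals that cover counting error only, and they do not measure the difference between conditions. Read numbers in a gene depend on both the amount of its RNA and the share bound by HNRNPK, which cannot be told apart here. The libraries held 5551612, 6216226, 3537577 and 3252800 cluster reads in the parental cytoplasm, KRT19 KO cytoplasm, parental nucleus and KRT19 KO nucleus, and every cluster had at least 5 reads. Reads in mature mRNA (coding and untranslated exons) were 34.5%, 56.2%, 8.33% and 10.3% of these, and reads in introns 43.7%, 24.1%, 69.3% and 62.2%. KRT19 itself had 1 cluster in each cytoplasmic library (7 reads in parental and 5 in KRT19 KO), too few to check the genotype. Vimentin (VIM), CD44, CAV1 and AXL, which mark this mesenchymal-like line, had clusters in every library, while PGR had none and CDH1 had 1. ESR1, whose protein such cells lack, had 10, 2, 9 and 6 clusters in the parental cytoplasm, KRT19 KO cytoplasm, parental nucleus and KRT19 KO nucleus. In the same library order ESR1 had 76, 26, 77 and 60 reads, and VIM had 207, 282, 167 and 69. The epithelial marker EPCAM had 3, 1, 3 and 0 clusters. ESR1 was therefore present in every library, and EPCAM in all but the KRT19 KO nucleus. ESR1 lay below VIM throughout, but only narrowly in the KRT19 KO nucleus, where these markers did not clearly separate. CD44, CAV1 and AXL had more reads than VIM in each library. Of the nuclear RNAs, NEAT1 was higher in the nucleus (789 and 1092 RPM, reads per 1000000 cluster reads of the library) than in the cytoplasm (226.4 and 204), but MALAT1 was higher in the cytoplasm (1229 against 888 in parental cells, 842 against 548 in KRT19 KO cells). Mitochondrial clusters, taken as a cytoplasmic marker, had 7078 RPM in the parental cytoplasm and 9178 in the parental nucleus. For the KRT19 KO line the values were 46426 in the cytoplasm and 37163 in the nucleus. Like MALAT1, this marker thus lay on the unexpected side in the parental line. Mitochondrial levels also differed strongly by line, with the KRT19 KO libraries far above the parental ones. The cause of this difference, and the part of fraction purity in the results below, were not tested.

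MYC was sparsely covered. It had 1 cluster with 27 reads in the parental cytoplasm, 7 clusters with 167 reads in the KRT19 KO cytoplasm, 2 clusters with 40 reads in the parental nucleus and 4 clusters with 37 reads in the KRT19 KO nucleus. Scaled to the library total, these were 4.86 RPM (Wilson interval 3.34 to 7.08), 26.9 (23.1 to 31.3), 11.3 (8.30 to 15.4) and 11.4 (8.25 to 15.7). The KRT19 KO cytoplasm was therefore the highest, the parental cytoplasm the lowest, and the nuclear libraries had overlapping intervals. By number of clusters MYC ranked 10354 of 13388 genes in the parental cytoplasm, 5089 of 12928 in the KRT19 KO cytoplasm, 8603 of 13517 in the parental nucleus and 6543 of 13581 in the KRT19 KO nucleus.

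**Figure D1:**
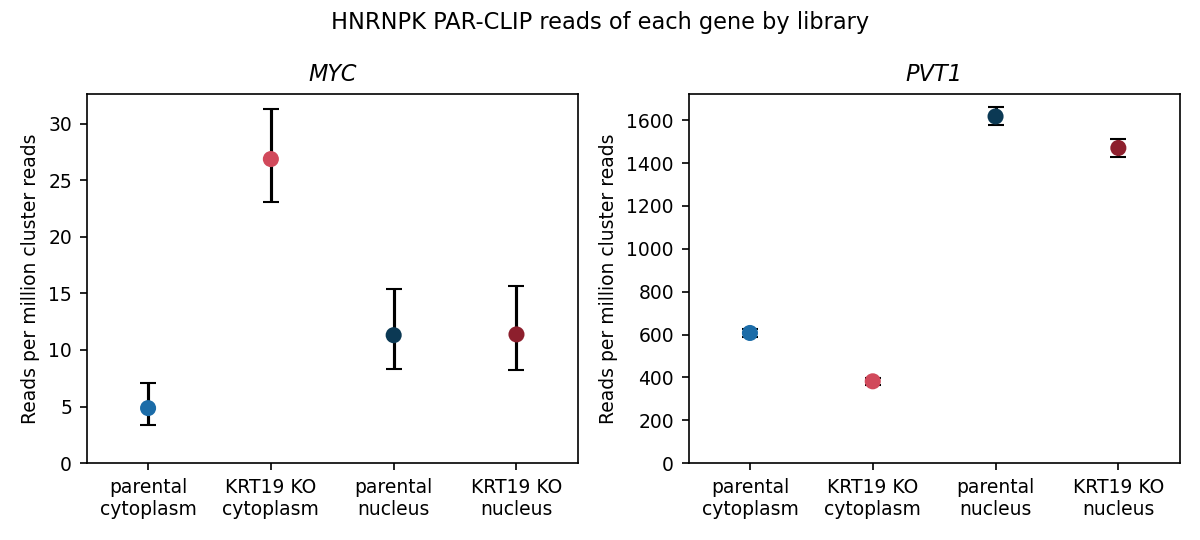
RPM (y axis, starting at 0) of MYC (left) and PVT1 (right) in each library (x axis), with points for the value and bars for the 95% Wilson interval from counting. MYC was highest in the KRT19 KO cytoplasm (26.9), and PVT1 was higher in both nuclear libraries (1617 and 1470) than in the cytoplasmic ones (607 and 382).

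PVT1 was among the genes with the most clusters in every library. It had 178 clusters with 3372 reads in the parental cytoplasm, 107 with 2374 in the KRT19 KO cytoplasm, 236 with 5722 in the parental nucleus and 189 with 4783 in the KRT19 KO nucleus. The levels were 607 RPM (587 to 628), 382 (367 to 398), 1617 (1576 to 1660) and 1470 (1429 to 1513), with no overlap between these counting intervals. In the cytoplasm the KRT19 KO library was the lower, an order that turned when PVT1 was scaled to intronic reads (1338 in parental and 1520 in KRT19 KO per 1000000 intronic reads). By clusters PVT1 ranked 31, 50, 13 and 21 among all genes in the same library order, and 2, 3, 2 and 2 among the 898, 892, 1000 and 1018 genes annotated as long intergenic noncoding RNA.

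Length alone gives a long gene many clusters, so the density was compared as well. PVT1 spans 392576 nt in the GENCODE annotation of GRCh37 (chr8:128806772-129199347, plus strand) and held 45.3, 27.3, 60.1 and 48.1 clusters per 100 kb in the parental cytoplasm, KRT19 KO cytoplasm, parental nucleus and KRT19 KO nucleus. The medians over genes of at least 100 kb were 10.9, 8.17, 10.0 and 8.81 per 100 kb, and PVT1 exceeded 95.2%, 88.4%, 98.7% and 97.2% of these genes. MYC, annotated at chr8:128747680-128755197, had 0.133, 0.931, 0.266 and 0.532 clusters per kb, so per length MYC was the denser gene in both KRT19 KO libraries and PVT1 in both parental ones. In the KRT19 KO nucleus the order turned over clusters of at least 10 reads (2 for MYC and 134 for PVT1). It also turned there with at least 2 conversion locations (1 and 61). The same held when PVT1 was counted only up to its last named cluster (61.6 per 100 kb).

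In the cytoplasm, every MYC cluster lay in mature mRNA sequence. The parental cluster, chr8:128753458-128753507, lay in the 3′ untranslated region of exon 3, starting 254 nt after the stop codon, and had 27 reads in 13 distinct sequences, 14 reads with a T-to-C conversion and 4 conversion locations. The KRT19 KO cluster at this place, chr8:128753474-128753507, was contained in it and had 55 reads in 31 distinct sequences, with conversions in 38 reads at 7 locations. It was the MYC cluster with the most reads. Both contain the canonical polyadenylation hexamer AATAAA, which 5.15% of 21545 clusters in 3′ untranslated regions held in the parental cytoplasm and 5.55% of 28448 in the KRT19 KO cytoplasm. A match of these letters is a description and not evidence of a used site.

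The KRT19 KO cytoplasm had 6 more MYC clusters. In the 3′ untranslated region, chr8:128753385-128753412 started 181 nt after the stop codon with 16 reads, and chr8:128753563-128753592 started 359 nt after it with 38 reads. In the coding part of exon 2, chr8:128750737-128750767 had 16 reads, chr8:128750877-128750901 had 23 and chr8:128751158-128751182 had 13. In the coding part of exon 3, chr8:128752753-128752779 had 6 reads in 2 distinct sequences and 1 conversion location. The 3′ untranslated clusters together held 109 of the 167 reads (65.3%) and the coding clusters 58 (34.7%). None of the 4 coding clusters overlapped a MYC cluster of another library.

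In the nucleus, most MYC reads lay in intron 2. By distinct sequences this held in the parental library. In the KRT19 KO nucleus intron 2 had as many distinct sequences as the 3′ untranslated region. The parental nuclear library had chr8:128751532-128751564 with 31 reads of 9 distinct sequences, 267 nt after the end of exon 2. The KRT19 KO nuclear library had chr8:128751535-128751564 at the same place with 12 reads of 2 distinct sequences. Both ended at the same base, 1078 nt before exon 3. A second intron 2 cluster, chr8:128751858-128751878, was found in the KRT19 KO nucleus, with 12 reads of 1 distinct sequence. The remaining parental nuclear cluster, chr8:128748581-128748610, lay in the 5′ untranslated part of exon 1 and had 9 reads of 1 distinct sequence. Neither cytoplasmic library had an intronic MYC cluster.

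The KRT19 KO nucleus also had MYC clusters in the 3′ untranslated region, at chr8:128753388-128753412 with 6 reads of 1 distinct sequence and at chr8:128753562-128753592 with 7 reads of 2. Both fell on sites of the KRT19 KO cytoplasm, where the same sites had 16 and 38 reads. Over all libraries the 14 clusters merged into 10 sites, of which 6 were found in 1 library, 4 in 2 libraries and 0 in more. Over all sites of the series, 77.4% were found in 1 library, 15.5% in 2, 5.46% in 3 and 1.68% in all 4. The AATAAA site was the site shared by both cytoplasmic libraries and the first intron 2 site the one shared by both nuclear libraries.

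**Figure D2:**
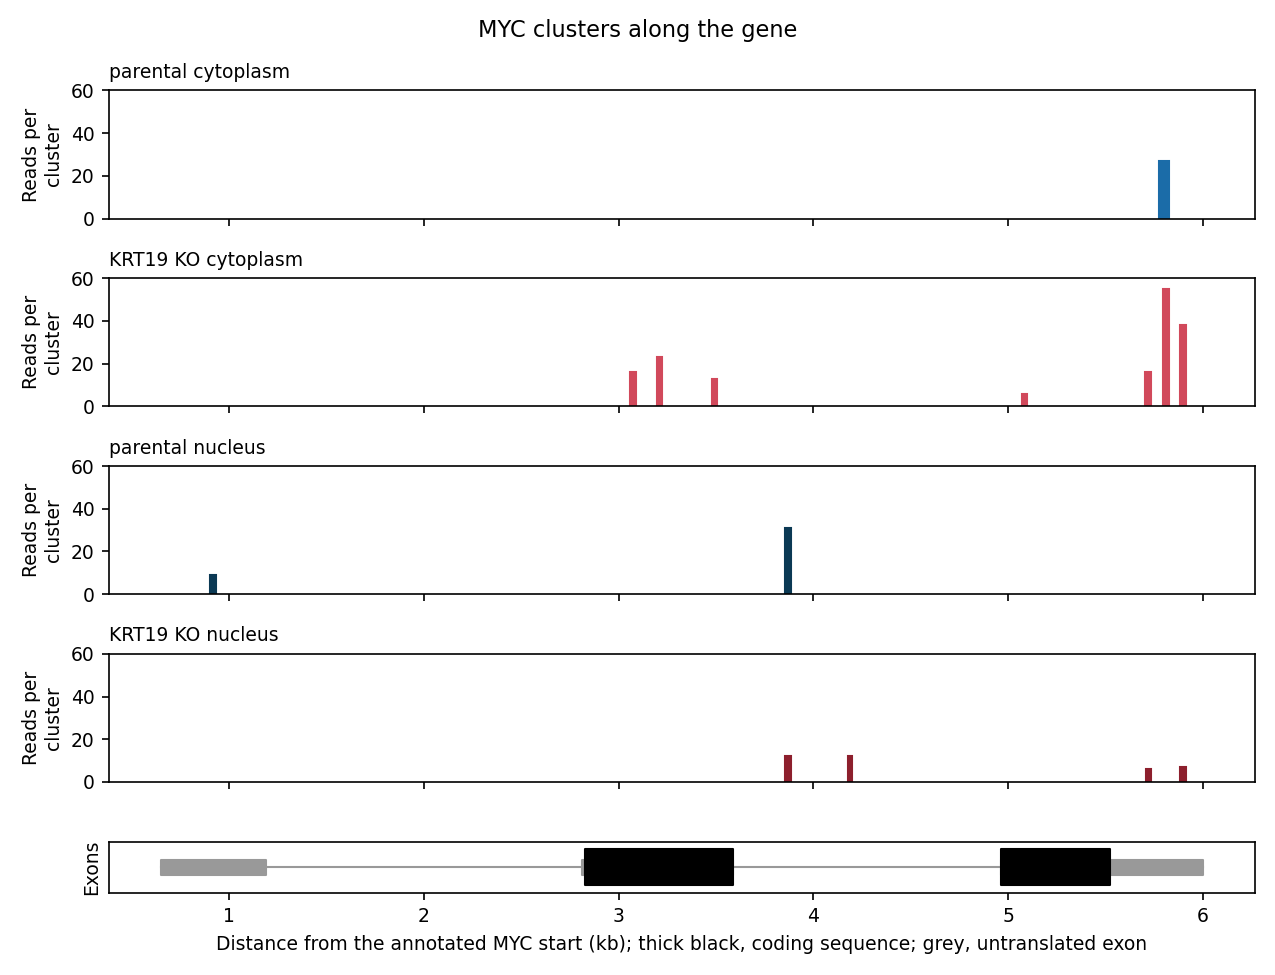
Reads per MYC cluster (y axis, from 0) against the distance in kb from the annotated MYC start (x axis), 1 panel per library, with the exons below (black for coding, grey for untranslated). The cytoplasmic clusters lie on exons, and the clusters with the most reads in the nuclear libraries lie in intron 2 (31 reads in parental, 12 in KRT19 KO).

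Conversions were present in MYC clusters of every library. The share of MYC reads with a T-to-C conversion was 51.9% in the parental cytoplasm (34.0 to 69.3), 68.9% in the KRT19 KO cytoplasm (61.5 to 75.4), 85.0% in the parental nucleus and 100% in the KRT19 KO nucleus. Over all clusters of these libraries it was 66.4%, 59.6%, 72.9% and 76.7%. The MYC nuclear shares rest on 10 and 6 distinct sequences. The motif searched on the RNA strand, [U/A][U/C/A]CCC, was present in 3 of the 14 MYC clusters and CCC in 7. Among all clusters in 3′ untranslated regions, 24.8% to 34.6% per library held the motif and 34.8% to 46.3% held CCC. With 14 MYC clusters, no difference from these shares can be read. The intron 2 site found in both nuclei was 42.4% C in the parental library, where intronic clusters of other genes had 27.4%. The AATAAA cluster of the parental cytoplasm was 12.0% C and 40.0% A, where clusters in 3′ untranslated regions had 23.7% C.

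MYC reads were 5.52-fold higher in the KRT19 KO cytoplasm than in the parental cytoplasm (exact interval 3.66 to 8.63). With 1 read added the log2 ratio was 2.42, above 95.3% of the 7783 genes with at least 100 reads in this pair. Of these genes, 19.4% were at least 2-fold higher and 20.0% at least 2-fold lower in the KRT19 KO cytoplasm, so 2-fold ratios were common between these libraries. The 95th percentile of the log2 ratios was 2.34. By distinct sequences MYC was 4.32-fold higher (2.41 to 8.42). Genes with most of their reads in mature mRNA were shifted as a group, with a median log2 ratio of 0.65 over 2506 genes and 37.1% at least 2-fold higher, and MYC was above 89.9% of them. Per 1000000 reads in mature mRNA, MYC had 14.1 in the parental cytoplasm and 47.8 in that of KRT19 KO cells. The parental value rests on 1 cluster. Whether this difference would recur in other cultures was not tested.

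Between the nuclear libraries MYC did not differ beyond counting error, with a ratio of KRT19 KO to parental of 1.01 (0.626 to 1.61). Its log2 ratio of 0.01 moved to -0.99 over clusters with at least 2 conversion locations, to -0.46 by distinct sequences and to 1.50 without the leading cluster of each library, so no direction can be read. The share of genes at least 2-fold higher in the KRT19 KO nucleus was 11.1%, and MYC was under the minimum of 100 reads for that count. Cytoplasm against nucleus, MYC was lower in the cytoplasm of parental cells, with a ratio of 0.430 (0.254 to 0.718) that was also under the read minimum, beside 18.9% of all genes at least 2-fold higher and 31.2% lower. By distinct sequences this ratio was 0.536 (0.217 to 1.37), so that its direction was within counting error. Over mature mRNA reads alone MYC had a log2 ratio of -1.21, with a nuclear side of 9 reads of 1 distinct sequence. In KRT19 KO cells it was higher in the cytoplasm by 2.36-fold (1.65 to 3.47), where 26.0% of 7688 genes were at least 2-fold higher, and its log2 ratio of 1.21 was 0.20 over mature mRNA reads alone. These comparisons share libraries with each other.

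**Figure D3:**
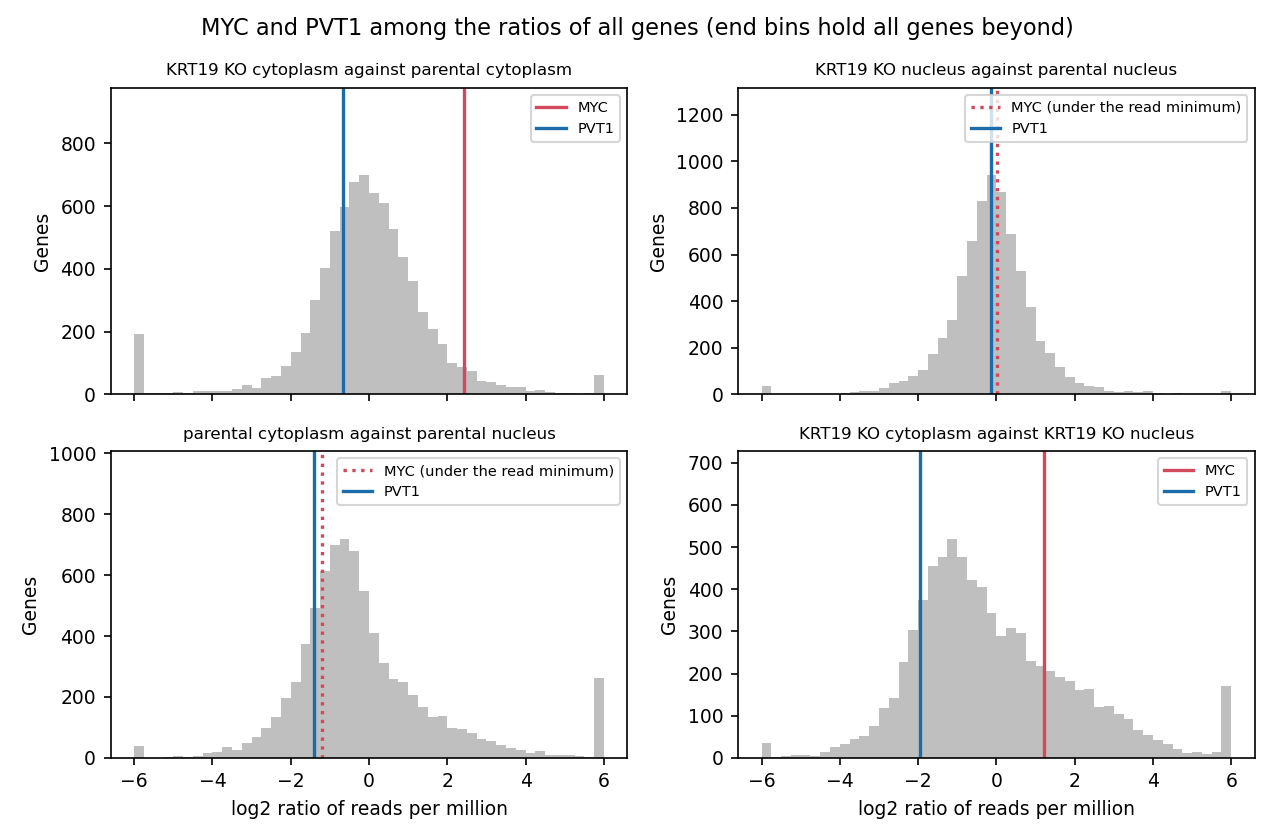
Number of genes (y axis) by log2 ratio of RPM (x axis) for each pair of libraries, over genes with at least 100 reads in the pair, with MYC in red and PVT1 in blue. MYC stands in the upper tail for the KRT19 KO against the parental cytoplasm (2.42), and PVT1 left of the centre in that panel (-0.67) and further left in the cytoplasm to nucleus panels (-1.41 and -1.94).

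MYC was set beside other mRNAs known for rapid turnover, from a list of 26 immediate-early and growth-control genes that includes MYC. In the cytoplasmic pair 13 of them had enough reads, of which 6 were at least 2-fold higher and 1 lower in KRT19 KO, with a median log2 ratio of 0.91 against -0.06 over all genes, of which 19.4% were higher and 20.0% lower. Genes with most of their reads in mature mRNA had 37.1% higher. CCND1, the cyclin that promotes entry into S phase, had 1187 RPM in the parental cytoplasm and 1895 in that of KRT19 KO cells (log2 ratio 0.68). MCL1, a survival factor of the BCL2 family, had 257 and 484 (0.91), and FOSL2, an AP-1 subunit, had 484 and 604 (0.32). FOSL1, another AP-1 subunit, had 20.5 and 68.4 (1.73) and was thus above 2-fold. The others past 2-fold beside MYC, named after their values were seen, were ZFP36L1 (1.79), DUSP6 (1.34), SGK1 (1.26) and DUSP1 (1.26), with CYR61 (-1.16) on the lower side. In the nuclear pair 6 genes had enough reads, of which 1 was at least 2-fold higher and 2 lower, with a median of -0.35 against -0.11 over all genes, of which 11.1% were higher and 15.5% lower.

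Short-lived mRNAs lay mostly on the cytoplasmic side. In KRT19 KO cells 11 of the 13 listed genes with enough reads were at least 2-fold higher in the cytoplasm than in the nucleus and 0 were lower, with a median log2 ratio of 2.26 against -0.48 over all genes, of which 26.0% were higher and 38.0% lower. Genes with most of their reads in mature mRNA did so too, with 69.4% higher and a median of 1.75, so this was not particular to short-lived mRNAs. MYC was among the 11, but stood above 36.2% of those mature mRNA genes. In parental cells 5 of 8 were higher and 1 was lower, with a median of 1.69 against -0.49, where 18.9% of all genes and 53.3% of mature mRNA genes (median 1.11) were higher and 31.2% of all genes lower. MYC did not reach the read minimum in parental cells, where its own log2 ratio was -1.20.

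Partners and regulators of the MYC protein had ratios on both sides of 0. Of 28 names listed for this network (some are older symbols of the same gene), 23 had a cluster and 14 had enough reads in the cytoplasmic pair, of which 3 were at least 2-fold higher and 1 lower in KRT19 KO, with a median of 0.14, beside 19.4% and 20.0% of all genes. FBXW7, the ubiquitin ligase subunit that targets MYC for degradation, had the most clusters of the list (308) and a log2 ratio of -0.38. MYCBP2, an E3 ligase found through its binding to MYC, stood at -0.96, and MAX, the obligate dimer partner of MYC, at 0.85. MGA, a MAX partner that opposes MYC at shared sites, stood at 1.50. The other 2 genes past 2-fold on the higher side, named after their values were seen, were PIM1, a kinase that acts with MYC in lymphoid tumours (14 reads in parental and 373 in KRT19 KO, log2 ratio 4.48), and MNT, a repressing MAX partner (9 and 145 reads, 3.70). In the nuclear pair 1 of 14 was higher, again MNT (1.76), and 0 were lower, beside 11.1% and 15.5% of all genes. Cytoplasm against nucleus, 2 of 13 were higher and 2 lower in parental cells (all genes 18.9% and 31.2%), and 5 of 14 were higher and 3 lower in KRT19 KO cells (26.0% and 38.0%).

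Clusters of PVT1 lay almost wholly in sequence annotated as intron. The intron class held 175 of the 178 clusters in the parental cytoplasm (98.3%), 102 of 107 in the KRT19 KO cytoplasm (95.3%), 232 of 236 in the parental nucleus (98.3%) and 181 of 189 in the KRT19 KO nucleus (95.8%). This was so in the cytoplasmic libraries as well as in the nuclear ones. The exon class held 3, 5, 4 and 7 clusters with 3.62%, 4.04%, 3.69% and 6.90% of the PVT1 reads. PVT1 has 190 transcript models in the GENCODE annotation used here, and by those models 61 of the 710 clusters overlapped some exon, more than the 19 of the deposited exon class. A single cluster had the microRNA class, chr8:128808210-128808230 in the KRT19 KO nucleus, with 5 reads of 1 distinct sequence.

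Clusters were spread over the first 300 kb of the gene. In each library every 50 kb stretch from the start to 300 kb held clusters, with the fewest between 50 and 100 kb (17, 9, 25 and 23 clusters in the parental cytoplasm, KRT19 KO cytoplasm, parental nucleus and KRT19 KO nucleus). The KRT19 KO nucleus had 23 between 100 and 150 kb as well. The stretch from 200 to 250 kb held 21.2%, 25.9%, 29.7% and 26.6% of the PVT1 reads. Past 300 kb there were 1, 1, 3 and 4 PVT1 clusters. Over the 85.8 kb from the last PVT1 cluster to the annotated gene end, 9, 5, 5 and 7 plus-strand clusters carried no gene name, a density of 10.5, 5.82, 5.82 and 8.15 per 100 kb against 58.0, 34.9, 76.9 and 61.6 in the stretch named PVT1.

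**Figure D4:**
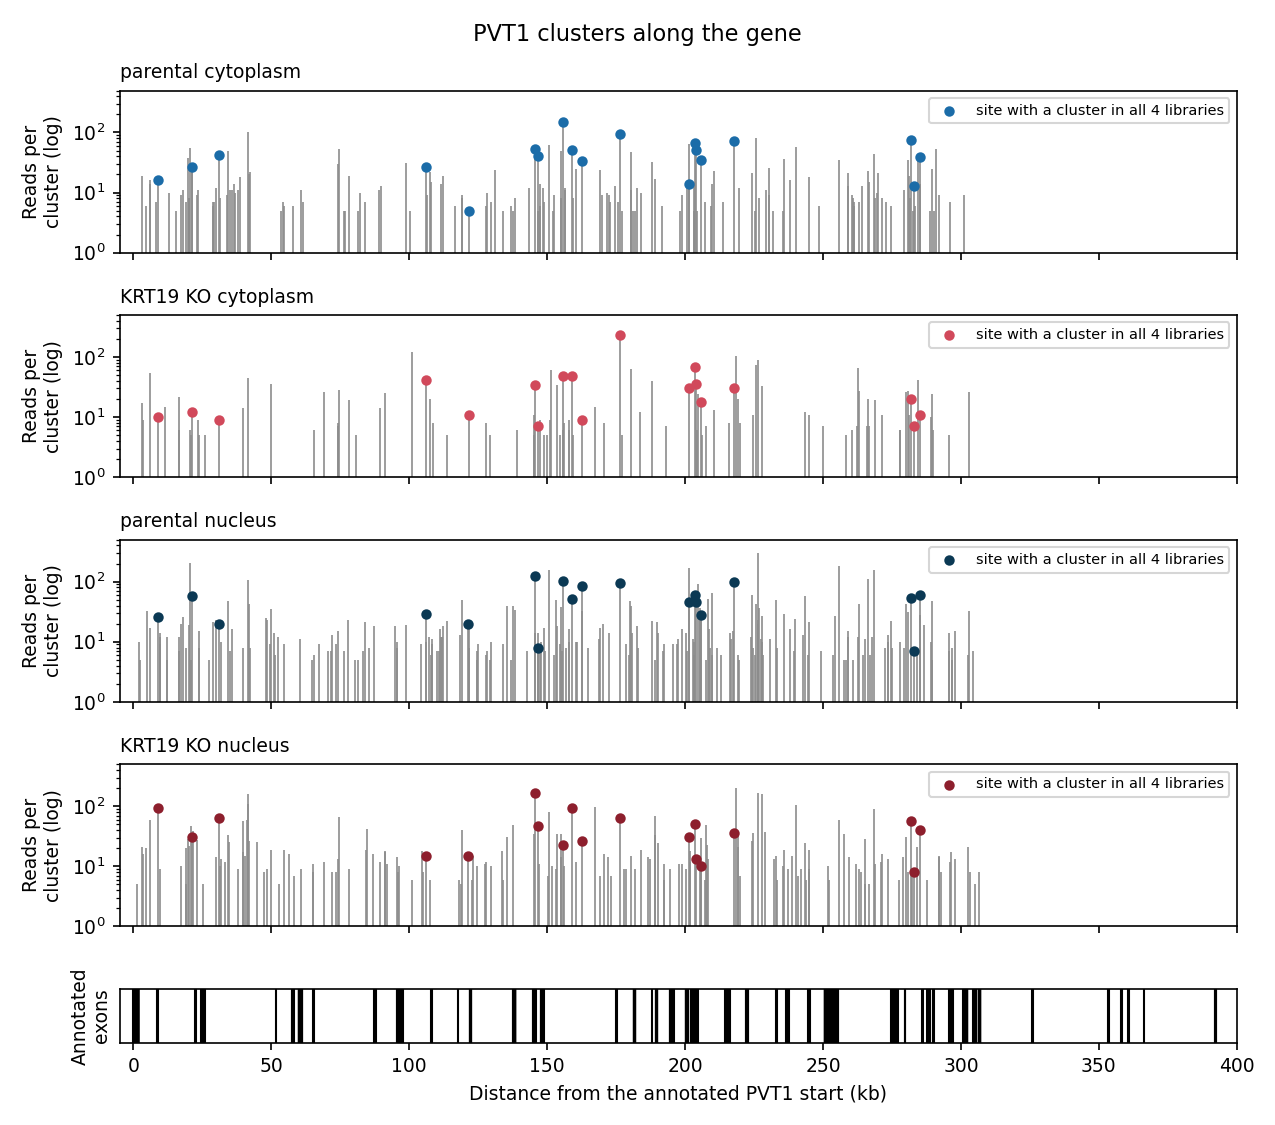
Reads per PVT1 cluster (y axis, log scale) against the distance in kb from the annotated PVT1 start (x axis), 1 panel per library, with annotated exons below. Grey lines are clusters, and coloured points are the clusters at the 19 sites found in all 4 libraries, which run from 8.97 kb to 285 kb.

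Reads were spread over many PVT1 clusters in place of a few. The 5 clusters with the most reads held 14.9% of the PVT1 reads in the parental cytoplasm, 26.3% in the KRT19 KO cytoplasm, 17.7% in the parental nucleus and 17.8% in the KRT19 KO nucleus. The median cluster had 11, 11, 12 and 14 reads. Clusters of at least 100 reads numbered 2, 3, 10 and 7.

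The leading cluster differed from library to library. In the parental cytoplasm it was chr8:128962356-128962392 with 148 reads, followed by chr8:128848286-128848316 with 103, chr8:128982976-128983007 with 95, chr8:129032278-129032311 with 80 and chr8:129088695-129088731 with 76. In the KRT19 KO cytoplasm it was chr8:128982976-128983007 with 237 reads, followed by chr8:128907709-128907743 with 121, chr8:129025057-129025092 with 104, chr8:129033189-129033215 with 88 and chr8:129032278-129032311 with 75. Thus chr8:128982976-128983007 and chr8:129032278-129032311 were among the leading clusters of both cytoplasmic libraries.

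In the parental nucleus the leading cluster was chr8:129033185-129033219 with 299 reads, followed by chr8:128827066-128827101 with 206, chr8:129062467-129062499 with 181, chr8:129008324-129008360 with 168 and chr8:128957441-128957474 with 158. In the KRT19 KO nucleus it was chr8:129025059-129025087 with 198 reads, followed by chr8:128952398-128952424 and chr8:129033186-129033217 with 167 each, chr8:128848337-128848364 with 160 and chr8:129034595-129034622 with 159. The site near chr8:129033185-129033219 was the one among the leading 5 of both nuclear libraries. It had 299 reads in the parental nucleus, 167 in the KRT19 KO nucleus and 88 in the KRT19 KO cytoplasm, and no PVT1 cluster in the parental cytoplasm.

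Merging overlapping clusters gave 495 PVT1 sites, of which 355 were found in 1 library (71.7%), 84 in 2, 37 in 3 and 19 in all 4 (3.84%). Over the whole series 77.4% of 592021 sites were found in 1 library, 15.5% in 2, 5.46% in 3 and 1.68% in all 4, and of 363283 sites with an intronic cluster these shares were 75.7%, 16.4%, 6.06% and 1.87%. The 19 PVT1 sites held 21.5% of the PVT1 reads. A cluster at these sites had a median of 36 reads against 9 at sites of 1 library, and the highest count at a site of 1 library was 67. Sites of 1 library numbered 86, 37, 132 and 100 in the parental cytoplasm, KRT19 KO cytoplasm, parental nucleus and KRT19 KO nucleus.

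Of the 84 sites in exactly 2 libraries, both parental libraries shared 27, both nuclear libraries 19, both KRT19 KO libraries 12 and both cytoplasmic libraries 7. The remaining pairs, parental nucleus with KRT19 KO cytoplasm and parental cytoplasm with KRT19 KO nucleus, shared 9 and 10. For sites with an intronic cluster over the whole series, the same pairs held 21.4%, 17.9%, 13.8%, 17.7%, 13.3% and 15.95% of sites in exactly 2 libraries, against 32.1%, 22.6%, 14.3%, 8.33%, 10.7% and 11.9% for PVT1. The libraries also differed in their number of PVT1 clusters, from 107 in the KRT19 KO cytoplasm to 236 in the parental nucleus. The part of this in the shares was not tested. Among the 37 sites of 3 libraries, the KRT19 KO cytoplasm was the missing library at 14, the parental cytoplasm at 8, the parental nucleus at 7 and the KRT19 KO nucleus at 8, or 37.8%, 21.6%, 18.9% and 21.6%, against 25.6%, 20.95%, 24.05% and 29.4% of intronic sites of 3 libraries. A missing cluster says only that fewer than 5 reads, or too few conversions, were called there.

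The 19 sites of all 4 libraries recurred most widely. Among them the site with the most reads over all libraries was chr8:128982976-128983007, 176 kb from the gene start, with 95 reads in the parental cytoplasm, 237 in the KRT19 KO cytoplasm, 96 in the parental nucleus and 64 in the KRT19 KO nucleus. The highest read position in each library fell within 1 nt at this site. Such agreement was rare, as these positions lay within 5 nt at 3 of the 19 sites. Their median range over the 19 sites was 17 nt and the largest 33 nt. It was highest in the KRT19 KO cytoplasm (38.1 RPM against 17.1, 27.1 and 19.7 in the parental cytoplasm, parental nucleus and KRT19 KO nucleus), unlike PVT1 as a whole. The clusters there were 62.5% A, 25.0% C and 9.4% U in both cytoplasmic libraries. They had 1 conversion location in the parental cytoplasm, under the alternative minimum of 2, and 2 in the KRT19 KO cytoplasm.

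The next of the 19 by total reads was chr8:128952395-128952424, which the deposited annotation placed in a PVT1 exon. It had 54, 34, 126 and 167 reads in the parental cytoplasm, KRT19 KO cytoplasm, parental nucleus and KRT19 KO nucleus, which are 9.73, 5.47, 35.6 and 51.3 RPM. Both nuclear libraries were thus above both cytoplasmic ones. The site at chr8:128962356-128962394 went by genotype, with 148 and 103 reads in the parental cytoplasm and nucleus and 49 and 23 in KRT19 KO. The site at chr8:128965820-128965846 had 52, 49, 51 and 93 reads, with the highest positions within 2 nt.

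A pair of adjacent sites lay at 1 exon. The site chr8:129010409-129010445 ended directly before an annotated exon start in every library, but lay inside longer exons of other transcript models. It had 67, 68, 59 and 50 reads in the parental cytoplasm, KRT19 KO cytoplasm, parental nucleus and KRT19 KO nucleus. The site chr8:129010558-129010592 lay inside that exon, with 52, 36, 45 and 13 reads. The reads of the first site were the most even of the sites named here, at 12.1, 10.9, 16.7 and 15.4 RPM. The third site of the exon class in all libraries was chr8:128815743-128815777, with 16, 10, 26 and 93 reads. Exon class clusters fell on 9 sites in total, of which 5 were found in 1 library, 1 in 2 and 3 in all 4.

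Of the 710 PVT1 clusters, 9 ended directly before an annotated exon start, at 5 sites, and 24 ended within 50 nt before one. Besides chr8:129010409-129010445, which accounts for 4 of the 9, these were chr8:128867371-128867400 and chr8:128914673-128914701 in the parental cytoplasm (11 and 15 reads), the latter also in the parental nucleus (6 reads), chr8:128944247-128944273 in the KRT19 KO nucleus (48 reads) and chr8:129011128-129011157 in the parental cytoplasm (5 reads). The sites chr8:129010409-129010445 and chr8:128867371-128867400 lie inside longer exons of other PVT1 transcript models, so they are intron ends only in some models. As a share of clusters annotated as intronic, clusters ending directly before an exon start were 1.30% of 690 for PVT1 and 0.449% of 486460 for the other genes. PVT1 has 188 annotated exon starts, and the ribonuclease used for digestion, T1, cuts after G, the base at which introns end. Of the PVT1 clusters, 52.2%, 50.5%, 46.2% and 41.8% ended in G in the parental cytoplasm, KRT19 KO cytoplasm, parental nucleus and KRT19 KO nucleus, against 49.3%, 49.7%, 45.5% and 44.4% of intronic clusters of other genes. The part of either in the count at exon starts was not tested.

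The other sites of all 4 libraries had between 5 and 99 reads in a library. Their reads, in the order parental cytoplasm, KRT19 KO cytoplasm, parental nucleus and KRT19 KO nucleus, were 27, 12, 57 and 31 at chr8:128828052-128828083, 43, 9, 20 and 64 at chr8:128837589-128837617, and 27, 42, 29 and 15 at chr8:128912651-128912682. They were 5, 11, 20 and 15 at chr8:128928204-128928259, 40, 7, 8 and 47 at chr8:128953432-128953458, and 34, 9, 86 and 26 at chr8:128969307-128969336. No common order of the libraries held over these 6 sites.

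Further along the gene the reads were 14, 31, 46 and 31 at chr8:129008234-129008268, 35, 18, 28 and 10 at chr8:129012504-129012536, and 72, 30, 99 and 36 at chr8:129024620-129024665. They were 76, 20, 53 and 56 at chr8:129088695-129088731, 13, 7, 7 and 8 at chr8:129089694-129089724, and 39, 11, 61 and 40 at chr8:129091861-129091891. At 5 of these 6 sites the KRT19 KO cytoplasm had fewer reads than the parental cytoplasm. In RPM, 16 of the 19 sites were higher in the parental nucleus than in the parental cytoplasm and 15 were higher in the KRT19 KO nucleus than in the KRT19 KO cytoplasm. Between genotypes, 4 of 19 were higher in the KRT19 KO than in the parental cytoplasm, and 7 of 19 higher in the KRT19 KO than in the parental nucleus. RPM is scaled to all cluster reads. Introns held 43.7% and 24.1% of these in the parental and KRT19 KO cytoplasm, and 69.3% and 62.2% in the nuclei. The same counts over all sites of 4 libraries are not given here, so these cannot be called particular to PVT1.

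A PVT1 cluster was found again in another library about as often as intronic clusters with a like number of reads. Of the PVT1 clusters, 51.7% in the parental cytoplasm (44.4 to 58.9), 65.4% in the KRT19 KO cytoplasm (56.0 to 73.8), 44.1% in the parental nucleus (37.9 to 50.4) and 47.1% in the KRT19 KO nucleus (40.1 to 54.2) overlapped a cluster of any other library by at least 1 nt. The shares over all clusters were 43.5%, 47.0%, 38.0% and 36.8%, and over intronic clusters 44.5%, 54.2%, 39.2% and 39.6%. For PVT1 clusters of 5 to 9 reads the share was 25.3%, 36.7%, 25.6% and 20.0%, and for those of at least 50 reads 94.1%, 80.0%, 100% and 95.5%. The intronic share lay inside the PVT1 interval in every read class of every library except clusters of 10 to 19 reads in the KRT19 KO cytoplasm, where 19 of 21 PVT1 clusters (90.5%, 71.1 to 97.3) were shared against 65.7%.

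**Figure D5:**
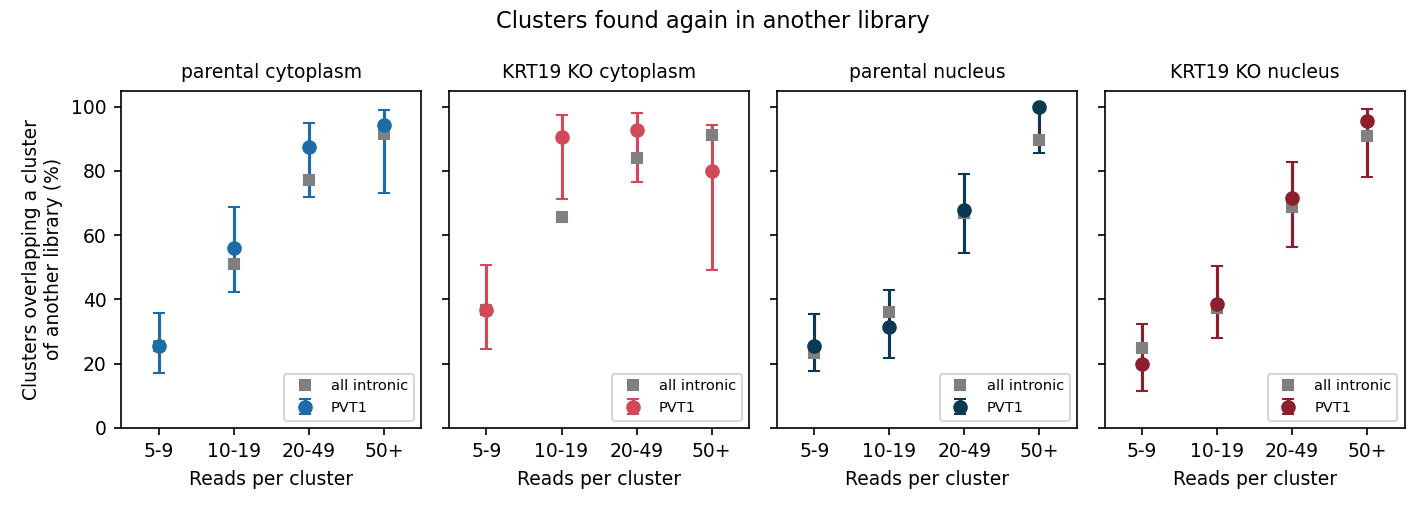
Percent of clusters that overlap a cluster of any other library (y axis) by reads per cluster (x axis), 1 panel per library, with PVT1 as points with 95% Wilson intervals and all intronic clusters as grey squares. The share rises with reads in every panel except from 20 to 49 reads to 50 or more in the KRT19 KO cytoplasm (92.6% to 80.0%), and the squares lie inside the intervals except at 10 to 19 reads in that library (90.5% against 65.7%).

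In the motif searched, PVT1 clusters were close to other intronic clusters. The share holding [U/A][U/C/A]CCC was 25.8% in the parental cytoplasm (20.0 to 32.7), 35.5% in the KRT19 KO cytoplasm (27.1 to 44.9), 32.2% in the parental nucleus (26.6 to 38.4) and 36.5% in the KRT19 KO nucleus (30.0 to 43.6), against 30.6%, 31.4%, 32.9% and 33.2% of intronic clusters of other genes. The C content was 29.0%, 29.4%, 29.3% and 30.9%, and that of other intronic clusters 25.9%, 25.9%, 27.4% and 28.5%. The G content was higher in each library, at 10.4%, 8.53%, 12.7% and 8.78% against 6.02%, 5.34%, 8.17% and 6.10%. CCC was present in 41.0%, 52.3%, 49.6% and 55.0% of PVT1 clusters against 40.5%, 41.2%, 45.1% and 44.2% of the other intronic clusters. The latter shares lay below the PVT1 interval in the KRT19 KO cytoplasm (43.0 to 61.6) and the KRT19 KO nucleus (47.9 to 61.9). These 2 libraries do not count separately, as 45 of the 107 PVT1 clusters of the KRT19 KO cytoplasm overlapped a cluster of the KRT19 KO nucleus. The intervals take clusters of 1 gene as independent, and no difference was tested. By cluster, the motif was present in 38 of the 76 clusters at sites of all 4 libraries and in 93 of the 355 at sites of 1 library, where the 4 clusters of a site share most of their sequence. These clusters had a median of 36 and 9 reads, and the same shares over other intronic clusters are not given here. The contrast therefore cannot be called particular to PVT1. The T-to-C share of PVT1 reads was 71.8%, 67.3%, 69.9% and 69.8%, a narrower range than the 59.6% to 76.7% of the whole libraries.

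PVT1 was lower in the cytoplasm than in the nucleus of both lines. The ratio of cytoplasm to nucleus was 0.376 in parental cells (0.360 to 0.392) and 0.260 in KRT19 KO cells (0.247 to 0.273), log2 ratios of -1.41 and -1.94. Of all genes, 31.2% (parental) and 38.0% (KRT19 KO) were at least 2-fold lower in the cytoplasm, and the medians were -0.49 and -0.48. Genes with at least 90% of their reads in introns had medians of -0.96 and -1.56, and PVT1 was above 29.2% and 32.2% of them. Against such genes PVT1 was therefore lower than the middle but not in the tail. Scaled to intronic reads, the PVT1 log2 ratios were -0.75 in parental and -0.53 in KRT19 KO cells, so that neither reached 2-fold and the order of the lines turned.

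Between the genotypes PVT1 had fewer reads in KRT19 KO. In the cytoplasm the ratio of KRT19 KO to parental was 0.629 (0.596 to 0.663), a log2 ratio of -0.67 that did not reach 2-fold, and 20.0% of genes were at least 2-fold lower. In the nucleus it was 0.909 (0.875 to 0.945), a log2 ratio of -0.14, where 15.5% of 7349 genes were at least 2-fold lower. Over clusters with at least 2 conversion locations the nuclear log2 ratio turned to 0.038. Among genes with at least 90% of their reads in introns, the medians were -0.71 and -0.14, and PVT1 was above 51.3% of 2161 genes and 50.1% of 2488 genes, next to the middle of both. Scaled to intronic reads, the cytoplasmic log2 ratio turned to 0.18, and the nuclei had 2247 and 2199 per 1000000 intronic reads.

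Other genes around the locus were counted from a list of 31 neighbours at 8q24, of which 18 had a cluster. In the cytoplasmic pair 6 had enough reads, with 1 at least 2-fold higher in KRT19 KO (KIAA0196, log2 ratio 1.41, named after its value was seen) and 0 lower, and a median log2 ratio of 0.54, beside 19.4% and 20.0% of all genes. In the nuclear pair 1 of 6 was higher (NSMCE2, 1.16) and 0 were lower, with a median of -0.10, beside 11.1% and 15.5% of all genes. ASAP1, a GTPase-activating protein for ARF proteins, had 131, 95, 128 and 116 clusters in the parental cytoplasm, KRT19 KO cytoplasm, parental nucleus and KRT19 KO nucleus and so fewer than PVT1 in each. FAM49B had 65, 49, 74 and 71, and NSMCE2, a SUMO ligase of the SMC5/6 complex, had 35, 48, 29 and 49. TATDN1 had 11, 12, 10 and 8. Cytoplasm against nucleus, 0 of 5 were at least 2-fold higher and 1 lower in parental cells (all genes 18.9% and 31.2%), and 1 of 6 was higher and 3 were lower in KRT19 KO cells (26.0% and 38.0%).

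The 51.6 kb between the annotated MYC end and the PVT1 start held 0 clusters of either strand in all 4 libraries. CASC11, a noncoding gene next to MYC on the other strand, had 1 cluster, with 24 reads, in the parental nucleus. Inside PVT1, a U1 small nuclear RNA pseudogene (chr8:129011377-129011540) had 1 cluster in each cytoplasmic library, with 11 reads in parental and 14 in KRT19 KO, and 0 in the nuclear libraries.

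The genes whose split over the libraries was nearest to that of each member were found among 7892 genes with at least 200 reads. PVT1 had 14.9%, 9.37%, 39.7% and 36.1% of its summed RPM in the parental cytoplasm, KRT19 KO cytoplasm, parental nucleus and KRT19 KO nucleus. Its 5 nearest genes by Euclidean distance over these 4 shares were FRAS1, ZGPAT, LONRF3, MARK1 and AKIRIN1. MYC had 8.94%, 49.4%, 20.8% and 20.9%, and its nearest genes were LYST, MASTL, PCGF2, TPM1 and QDPR. With 4 libraries as points, such likeness is a description.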

How the data were processed

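HNRNPK PAR-CLIP was measured in 4 libraries, each a condition of its own. Another 17 samples, of RNA-seq, were not analysed here. The authors demultiplexed the reads, collapsed identical sequences before adapter and molecular identifier removal, mapped them to hg19 and called and annotated clusters with PARalyzer inside PARpipe. The deposited files give each cluster's read count, distinct read count, conversion counts and annotation class. They also hold deposited fraction columns, a mode score and a log10 conversion specificity, which were not used. The labels name hg38 for the series, but the sequences of all clusters on chromosome 8 equalled GRCh37 at their coordinates, so GRCh37 positions and the GENCODE 44 annotation lifted to it are given. MYC positions follow its 3-exon model.

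From these files, reads per gene were summed and divided by the library's cluster reads. Wilson intervals and exact conditional binomial intervals of ratios were used. Ratios over all genes needed at least 100 reads in the pair, with 1 read added on the log2 scale; 2-fold was the limit for counting a gene as higher or lower. Clusters were shared at an overlap of at least 1 nt on the same strand. Gene density used genes of at least 100 kb. The functions were tested on simulated data. Python 3.11.15, numpy 2.4.6, pandas 2.3.3, scipy 1.17.1 and matplotlib 3.10.9 were used.

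The members, gene lists and rules were chosen with earlier results of these data known. Named were every MYC cluster, the 5 PVT1 clusters with the most reads per library, every PVT1 site of all 4 libraries, the 4 genes with the most clusters of each list, and the 5 genes nearest to each member; other sites and genes were chosen after their values were seen. Alternatives were a minimum of 10 reads, 2 conversion locations, distinct reads, other totals, removal of the leading cluster, the 100000 clusters with the most reads, membership by position, other overlap and motif rules and, added after seeing the data, totals of 1 annotation class. Sequences of the clusters are not printed.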

Additional observations from a re-analysis of the deposited data

Results flagged for a closer look

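MYC stood on opposite sides of the compartments in the 2 lines. Its log2 ratio of cytoplasm to nucleus was -1.20 in parental cells (27 reads against 40) and 1.21 in KRT19 KO cells (167 reads against 37). By distinct sequences the parental ratio was 0.536 (0.217 to 1.37), within counting error, and over mature mRNA reads alone the KRT19 KO log2 ratio was 0.20. MYC stood above 6.69% of mature mRNA genes in parental and 36.2% in KRT19 KO cells, below the middle in both. With 1 library per condition the difference between the lines was not tested. PVT1 had no such difference in direction.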

How the results depend on the processing

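With 1 library per condition, leaving out a replicate was not possible. No paired analysis was possible because each PAR-CLIP condition had 1 library and its results come from no test, while the replicate numbers in the labels belong to RNA-seq samples. Of 157 alternative values, 86 stayed within their limits. These were the counting interval, 1.5-fold for counts and, for ratios, the same sign and the same side of 2-fold. The MYC log2 ratio of KRT19 KO to parental cytoplasm stayed above 2-fold wherever it could be computed, from 1.71 to 2.42. The remaining values follow in the order parental cytoplasm, KRT19 KO cytoplasm, parental nucleus, KRT19 KO nucleus unless a library is named, and their cause was not tested.

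With distinct in place of all reads, MYC had 7.59 RPM in the parental cytoplasm and 32.8 in the KRT19 KO cytoplasm, and PVT1 1843 and 1547 in the parental and KRT19 KO nuclei. The MYC log2 ratio was -0.46 for KRT19 KO to parental nucleus (turned from 0.01) and -0.93 for parental cytoplasm to nucleus. With reads and totals of 1 annotation class, chosen after seeing the data, MYC in mature mRNA had 14.1, 47.8, 30.5 and 38.8 and PVT1 in introns 1338, 1520, 2247 and 2199 per 1000000 reads of that class. The MYC log2 ratio of KRT19 KO cytoplasm to nucleus fell to 0.20, the PVT1 ratio of KRT19 KO to parental cytoplasm turned to 0.18, and its ratios of cytoplasm to nucleus were -0.75 in parental and -0.53 in KRT19 KO cells.

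Without its leading cluster, MYC had 18.0, 2.54 and 7.69 RPM in the KRT19 KO cytoplasm, parental nucleus and KRT19 KO nucleus, a log2 ratio of KRT19 KO to parental nucleus of 1.50, and a T-to-C share of 100% in the parental nucleus; the parental cytoplasm, with 1 cluster, gave no value. PVT1 had 581, 344, 1533 and 1410.

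With at least 2 conversion locations, MYC had 16.6 and 7.99 RPM in the parental and KRT19 KO nuclei, with 1 cluster in each and a log2 ratio of -0.99. PVT1 had 547 in the parental cytoplasm and 1999.9 and 2053 in the parental and KRT19 KO nuclei, so its nuclear log2 ratio turned to 0.038, and its clusters numbered 81, 71, 72 and 61. With at least 10 reads, PVT1 had 581, 363, 1716 and 1637 RPM and 99, 58 and 146 clusters in the first 3 libraries. MYC then had 1 and 2 nuclear clusters, a log2 ratio of -0.21 for KRT19 KO to parental nucleus and -0.91 for parental cytoplasm to nucleus. The PVT1 clusters shared with another library were then 62.6% (parental) and 86.2% (KRT19 KO) in the cytoplasm, and 35.4% held the motif in the parental cytoplasm.

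Leaving mitochondrial clusters and the largest cluster out of the total gave PVT1 650 in the parental cytoplasm, 409 in the KRT19 KO cytoplasm and 1527 in the KRT19 KO nucleus. Among the 100000 clusters with the most reads, MYC had 1 and 2 nuclear clusters and PVT1 92, 65, 123 and 115. CCC was present in 41.0%, 52.3%, 49.6% and 55.0% of PVT1 clusters, and U[U/C]CCC in 16.9%, 22.4%, 19.9% and 22.2%.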
